A study of Homo sapiens with 6 samples.

Results

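The genes described here are 10 precursors of secreted neuroendocrine proteins and peptides, in control cultures of SH-SY5Y, an established human neuroblastoma cell line. They are the chromogranins CHGA and CHGB, the secretogranins SCG2 and SCG3, the granin-related genes VGF, SCG5 and PCSK1N, and the neuropeptide precursors NPY, GAL and VIP. They were chosen by name, out of 60709 genes with a value in the count table. A gene is called detected here when each of the libraries held at least 10 counts for it. This was so for all 10 members and for 22.9% of all genes in the table. The table also holds non-coding genes, and the share among protein-coding genes alone was not computed.

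The study treated SH-SY5Y cells with Nrf2-peptide-linked fumarate, dissolved in water. Messenger RNA was sequenced from 3 control and 3 peptide-treated samples. Control wells held 2 mL of medium and received 10 uL of DMSO. Treated wells received the same DMSO plus 200 uL of peptide solution (2 mg in 600 uL of water), and cells of both groups were lysed after 5 h. Only the control samples, labelled 4, 5 and 6, share their number with a column of the table. The peptide-treated samples, labelled 13, 14 and 15, were not analysed here, so no difference between the groups is given. The identity of the libraries as controls rests on these numbers alone. If the columns were numbered anew, the values below could come from treated cells. The labels do not say whether the wells came from separate cultures, so the spread between libraries may be partly technical.

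Granins are acidic proteins that aggregate with calcium in the trans-Golgi network and help to form dense-core vesicles, the storage compartment of hormones, neuropeptides and catecholamines. Inside these vesicles, prohormone convertases cut the precursors at pairs of basic residues, carboxypeptidase E trims the ends, and an amidating enzyme finishes many of the peptides. Sympathetic neurons, adrenal chromaffin cells and the tumours that arise from their lineage carry such vesicles, and granins serve as markers of these tumours.

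The libraries held 8887854 to 11397407 counts. Levels are given as counts per 1000000 of the scaled library total (CPM), and levels of different genes are ranked as CPM per kilobase of the longest annotated transcript. Replicate 3 stood apart from replicates 1 and 2 along the GC content of the transcripts, so its values are set beside the others for each gene. Of 12 sympathetic neuroblastoma markers, 11 were detected, HAND2 among them with 914 ± 44.3 CPM (SD, n = 3). The exception was TH, which encodes the first enzyme of catecholamine synthesis and had 0 counts in all 3 libraries. The endocrine pancreas and gut markers were at 0 for 6 of 7 genes, INS, GCG and SST included, and their summed level was 6.64 to 8.40 CPM. Endothelial markers summed to 0.113 to 0.263 CPM, leukocyte markers to 1.58 to 2.43 CPM and epithelial markers to 2.15 to 3.15 CPM. Among fibroblast markers all 6 had a count in every library, with a sum of 370.1 to 409.4 CPM, most of it from COL3A1 at 316 ± 21.0 CPM. Of 11 Schwann cell and mesenchymal markers, 7 were detected and the sum was 684 to 703 CPM. Most of it came from VIM at 285 ± 15.7 CPM, TWIST1 at 187 ± 20.0 CPM and FN1 at 184 ± 14.6 CPM. PRRX1 and SOX10 were at 0. The part of these lists in the levels below was not tested.

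VGF had the highest level of the 10 genes, by CPM and by CPM per kilobase. Together the members took 4278, 3982 and 3515 CPM in replicates 1, 2 and 3, and VGF accounted for 67.2%, 65.6% and 61.0% of their counts. Without VGF the other 9 genes summed to 1404, 1368 and 1371 CPM. The median level of the 10 members was 68.5 ± 3.02 CPM per kilobase (SD, n = 3), while the median of the 13863 detected genes with an annotated length was 8.34 ± 0.0961 CPM per kilobase. In cultures of many cells, fewer cells with a transcript and less of it per cell cannot be told apart.

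**Figure D1:**
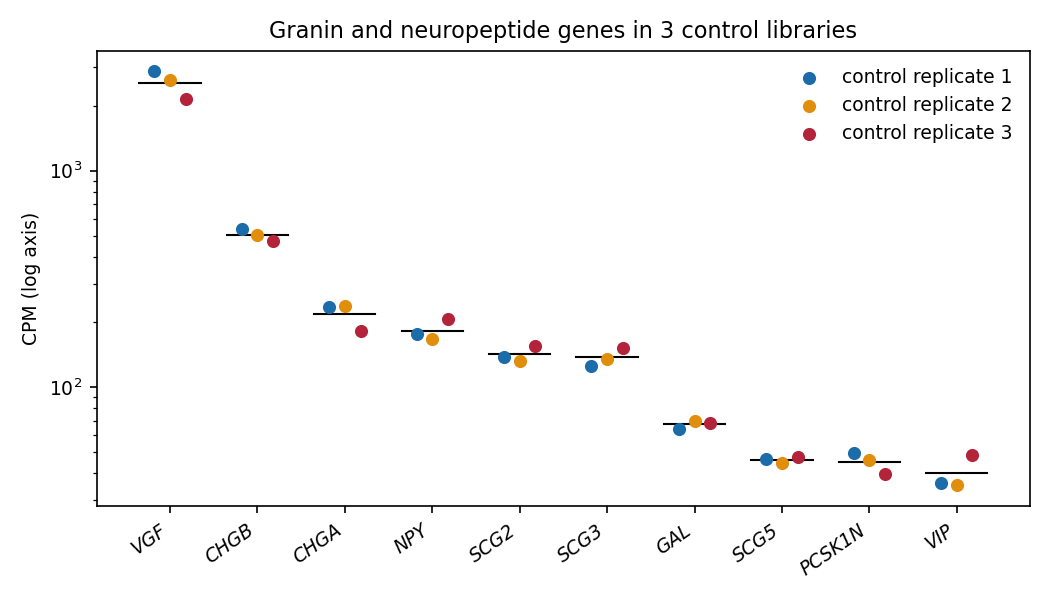
CPM of each granin and neuropeptide gene on a log axis in the 3 control libraries (points) with their mean (line). VGF lies near 2544 CPM, CHGB near 505 CPM, and the lowest gene, VIP, between 35.1 and 48.6 CPM, with replicate 3 lowest for VGF, CHGB, CHGA and PCSK1N and highest for NPY, SCG2, SCG3, SCG5 and VIP.

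Promoters of several granin and neuropeptide genes are known targets of CREB, a cyclic AMP-responsive factor that binds the palindrome TGACGTCA. RefSeq promoter sequences (GRCh38.p14) were matched for 7 of the 10 members: CHGA, SCG3, SCG5, VGF, NPY, VIP and PCSK1N. The stretches of VGF, CHGA and VIP from 110 to 21 bases before the RefSeq gene start are shown because they hold the palindrome or its nearest form, for the gene with the highest and the gene with the lowest level of the 10. Capitals mark the TGACGTCA palindrome, or TGACGTCT in VIP, and the letters TATAA. The coordinates are chr7:101165590-101165679 on the minus strand for VGF, chr14:92923040-92923129 on the plus strand for CHGA and chr6:152750687-152750776 on the plus strand for VIP, and each sequence reads 5′ to 3′ along the gene.
VGF: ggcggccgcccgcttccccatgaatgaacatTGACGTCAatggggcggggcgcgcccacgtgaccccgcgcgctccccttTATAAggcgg
CHGA: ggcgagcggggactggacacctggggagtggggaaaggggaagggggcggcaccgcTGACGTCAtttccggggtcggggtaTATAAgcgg
VIP: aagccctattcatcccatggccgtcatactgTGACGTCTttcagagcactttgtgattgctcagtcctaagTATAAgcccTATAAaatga

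All distances count from the RefSeq start, at 101165569 for VGF, 92923150 for CHGA and 152750797 for VIP. The gene positions given further on are those of GENCODE release 29, whose genes begin 24 bases earlier along the gene for VGF and 70 bases earlier for CHGA. The palindrome of CHGA, and the end of the VGF stretch, thus lie inside the GENCODE genes. The palindrome began 79 bases before the RefSeq start of VGF and 54 bases before that of CHGA. It was in the last 250 bases before the start in 1.65% of 35116 RefSeq promoters, and in 2.52% of the 15594 promoters of detected genes. VIP held the form TGACGTCT from 79 bases before its start. This form, searched after the VIP sequence was seen and on both strands (as AGACGTCA on the other), was in 0.473% of promoters. Among promoters of detected genes its share was 0.603%. TATAA was searched on the gene's strand only, in the last 50 bases. It began 30 bases before the start of VGF, 29 before CHGA, and 39 and 30 before VIP. TATAA was in 4.74% of promoters and in 2.80% of those of detected genes. SCG3, NPY and PCSK1N held neither the palindrome nor its core TGACG, searched on both strands and always present in the palindrome, in these 250 bases, and no TATAA in the last 50. The core was in 21.2% of all promoters and in 27.5% of those of detected genes. SCG5 held the core without the palindrome, 17 bases before its start, and VIP held a further core 89 bases before its start. These are matches of letters and no measure of binding. The 3 sequences belong to genes at different levels: VGF at 2544 CPM, CHGA at 217 CPM and VIP at 39.9 CPM.

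CHGA and CHGB, the chromogranins, are the main soluble proteins of chromaffin vesicles. CHGA (ENSG00000100604.13, chromosome 14, 92923080 to 92935293) had 2506, 2705 and 1603 counts in replicates 1, 2 and 3. These are 234, 237 and 181 CPM, with a mean of 217 ± 31.5 CPM (SD, n = 3). Replicates 1 and 2 were close together and replicate 3 was 0.769 times their mean. The coefficient of variation (CV, SD over mean) was 14.5%, against a counting error of 2.10%. CHGB (ENSG00000089199.10, chromosome 20, 5911430 to 5925361) had 5737, 5745 and 4202 counts. Its levels were 536, 503 and 475 CPM, a mean of 505 ± 31.0 CPM and a CV of 6.15%. Per kilobase, CHGB was at 198 ± 12.2 and CHGA at 105 ± 15.3 CPM, and the ranges of the 3 libraries did not overlap. This gap depends on the length used: with the median transcript length the means were 249 for CHGB and 240.4 for CHGA.

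SCG2 is the precursor of secretoneurin, and SCG3 is a membrane-associated granin that holds CHGA in the forming vesicle. SCG2 (ENSG00000171951.5, chromosome 2, 223596940 to 223602503) was measured at 137, 132 and 155 CPM, a mean of 141 ± 11.7 CPM (SD, n = 3). SCG3 (ENSG00000104112.9, chromosome 15, 51681353 to 51721031) was measured at 125, 134 and 152 CPM, a mean of 137 ± 13.8 CPM. Both secretogranins were highest in replicate 3, at 1.15 and 1.17 times the mean of the other two, whereas both chromogranins were lowest there. Annotated antisense transcripts lie within the SCG3 locus, but none shares exonic bases with it in GENCODE release 29.

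VGF, a gene induced by nerve growth factor whose product is cut into several bioactive peptides, had 30729, 29875 and 18984 counts (ENSG00000128564.7, chromosome 7, 101162509 to 101165593). Its levels were 2873, 2614 and 2144 CPM, a mean of 2544 ± 369.9 CPM (SD, n = 3), or 2744 CPM without replicate 3. VGF ranked 12 among all nuclear genes by CPM per kilobase. All 3 libraries differed, with replicate 1 highest and replicate 3 lowest. The CV of 14.5% was far above the counting error of 0.614%. It was also at or above that of all 29 nuclear genes within 2-fold of VGF in count, VGF included, whose median CV was 4.54%. After the GC trend was removed, the VGF levels were 2628, 2521 and 2436 CPM and the CV was 3.82%.

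SCG5, also called 7B2, is the chaperone and inhibitor of prohormone convertase 2, and PCSK1N encodes proSAAS, an inhibitor of prohormone convertase 1. SCG5 (ENSG00000166922.8, chromosome 15, 32641676 to 32697098) had 497, 511 and 421 counts. Its levels of 46.5, 44.7 and 47.5 CPM gave a mean of 46.2 ± 1.43 CPM (SD, n = 3). Its CV of 3.08% was under its counting error of 4.58%. SCG5 shares 11 exonic bases with an antisense gene, and whether the counting used strand is not stated. PCSK1N (ENSG00000102109.9, chromosome X, 48831094 to 48835633) had 530, 526 and 350 counts. At 49.6, 46.0 and 39.5 CPM, it had a mean of 45.0 ± 5.09 CPM and was lowest in replicate 3.

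NPY, galanin and VIP act on G protein-coupled receptors and are released by sympathetic and other autonomic neurons. NPY (ENSG00000122585.8, chromosome 7, 24284163 to 24291865) had 1872, 1903 and 1819 counts. Its levels were 175, 167 and 205 CPM, a mean of 182 ± 20.4 CPM (SD, n = 3). GAL (ENSG00000069482.7, chromosome 11, 68683779 to 68691175) had 681, 796 and 603 counts. Its levels of 63.7, 69.7 and 68.1 CPM gave a mean of 67.1 ± 3.10 CPM, and its CV of 4.62% was near its counting error of 3.80%. VIP (ENSG00000146469.13, chromosome 6, 152750798 to 152759765) had the fewest counts of the neuropeptides, 385, 401 and 430. At 36.0, 35.1 and 48.6 CPM, a mean of 39.9 ± 7.53 CPM, VIP had a CV of 18.9%, the highest of the 10 genes. Without replicate 3 it was 1.81%, and with the GC trend removed NPY and GAL had higher CVs than VIP. Replicate 3 was 1.37 times the mean of the other two for VIP and 1.20 times for NPY. The 3 neuropeptide precursors summed to 275, 271 and 322 CPM.

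Per kilobase, the order of means was VGF, NPY, CHGB, CHGA, GAL, SCG2, PCSK1N, SCG3, SCG5 and VIP. VGF stood at 988 ± 144 CPM per kilobase (SD, n = 3) and NPY at 259 ± 28.99. The ratio of VGF to NPY was between 2.86 and 4.49 in the 3 libraries. VIP was lowest at 25.2 ± 4.75 CPM per kilobase, although over merged exons SCG5 was lowest at 21.1 and VIP stood at 25.2. The ranges of neighbours in this order overlapped for PCSK1N at 42.9 ± 4.85 and SCG3 at 41.4 ± 4.15, and for SCG3 and SCG5, the latter at 37.4 ± 1.15. By these ranges, the neighbours do not differ beyond their spread. Within libraries, PCSK1N was above SCG3 in 2 of 3. SCG3 was above SCG5 in all 3, by ratios of 1.005 to 1.195. The other 7 neighbouring pairs kept separate ranges, with CHGA and GAL nearly touching at a lowest CHGA value of 87.7 and a highest GAL value of 85.2. The order depends on the length used. NPY, whose longest transcript has 705 bases, was at rank 2 per kilobase and rank 4 by CPM, and SCG2 moved from rank 6 to rank 5 with the median transcript length, at 240.1 CPM per kilobase in place of 54.9.

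The difference of replicate 3 from the other libraries went with GC content across the members. Their longest transcripts ranged from 37.0% GC for VIP to 74.5% for PCSK1N. Across the 10 members, Spearman's rho between GC and the log2 ratio of replicate 3 to the mean of the others was -0.81. It was -0.73 across 10290 nuclear genes with a mean count of 100 or more. With the GC trend removed, rho was -0.45 across the members and -0.03 across those genes. These values are descriptions over genes that share the same 3 libraries. In replicate 3, 2 of the 10 members, VGF and CHGA, lay below the mean of the other libraries by at least 0.32 on the log2 scale. Of the 13920 detected genes, 8.95% did so. VIP was the 1 member that lay above by that much, against 9.59% of detected genes. No member passed this threshold in replicate 1, where 7.96% of detected genes were lower and 5.65% higher by that much, or in replicate 2, where 5.41% were lower and 3.99% higher. The cause of the GC trend was not tested.

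Removing the GC trend lowered the CV of 8 members and raised that of NPY and GAL. The median CV of the 10 went from 10.6% to 5.37%, while that of 10296 genes with a mean count of 100 or more went from 7.30% to 5.15%. PCSK1N went from a CV of 11.3% to 1.05%, with corrected levels of 45.3, 44.4 and 44.9 CPM. VGF and PCSK1N lie beyond the middle of the highest GC bin, 67.4%, and took the correction of that bin. VIP went from 18.9% to 10.3%, and CHGA from 14.5% to 7.48%.

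NPY and GAL moved the other way. With 57.9% GC, NPY lay above the trend in replicate 3, and its corrected levels were 167, 164 and 219.6 CPM. Its log2 difference in replicate 3 went from 0.27 to 0.41 and its CV from 11.2% to 17.1%. Of the 2495 nuclear genes within 2-fold of NPY in count, 99.8% had a corrected CV at or below that of NPY, and their median was 3.72%. GAL went from 63.7, 69.7 and 68.1 CPM to 59.6, 67.5 and 74.9 CPM, and its CV from 4.62% to 11.3%. After removal of the trend, replicate 3 was above the mean of the others by 0.41 for NPY, 0.24 for GAL and 0.21 for VIP on the log2 scale. The largest absolute difference among the 7 granins was that of CHGA, -0.18. The median absolute difference of all 10296 genes was 0.089. NPY was then the 1 member past the threshold of 0.32, which 6.60% of detected genes passed upwards and 5.21% downwards.

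**Figure D2:**
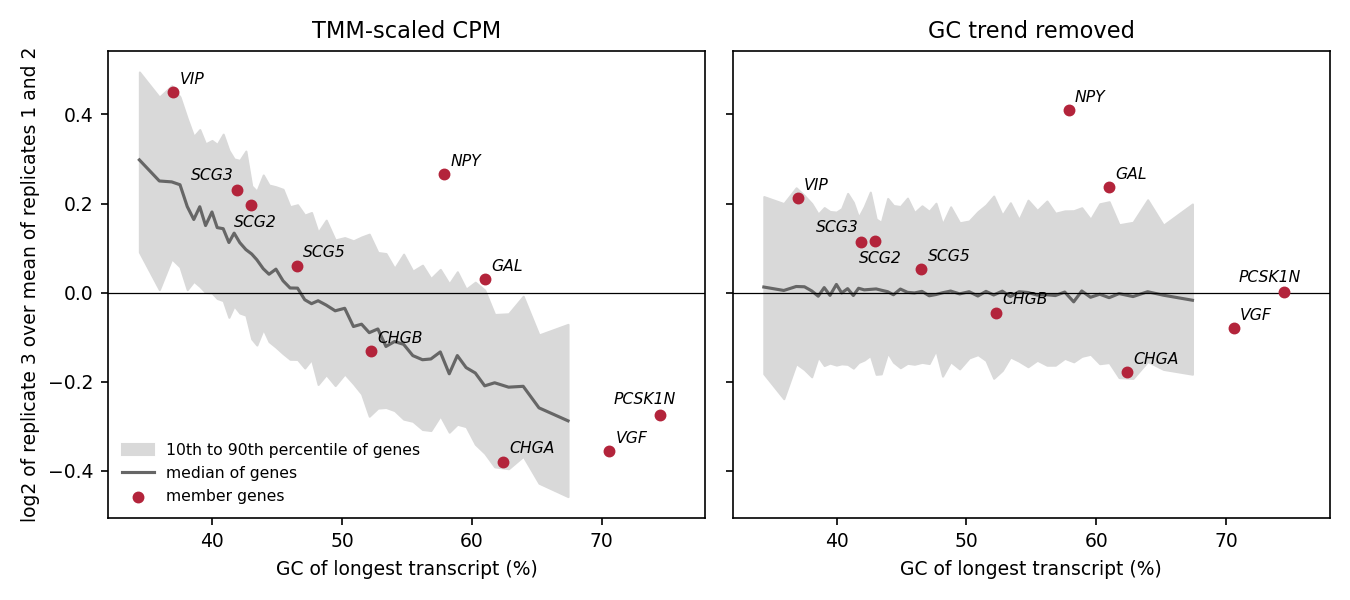
Log2 ratio of control replicate 3 to the mean of replicates 1 and 2 (vertical axis) against the GC percentage of the longest transcript, for the 10 members (red), with the median (line) and the 10th to 90th percentile (grey) of nuclear genes in bins of GC. The left panel uses TMM-scaled CPM and the right panel the same after removal of the GC trend, where VGF and PCSK1N lie near 0 and NPY stands highest at 0.41.

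The precursors were present with few transcripts of the convertases that cut them in neuroendocrine cells. PCSK1, prohormone convertase 1, had 5, 2 and 2 counts, and PCSK2, prohormone convertase 2, had 9, 15 and 8 counts. The means were 0.289 ± 0.156 CPM and 1.02 ± 0.256 CPM (SD, n = 3). Over the 3 libraries and per kilobase, SCG5 stood 171 times above PCSK2, its target enzyme, with an exact 95% counting interval of 121 to 251. The same ratio of PCSK1N to PCSK1 was 757, with an interval of 397 to 1658. The intervals cover counting error only. In replicates 1, 2 and 3 the ratio of SCG5 to PCSK2 was 211, 130 and 201. That of PCSK1N to PCSK1 was 513, 1274 and 848. Both ratios use the longest transcripts and depend on the length used. The longest transcript of PCSK1 has 5086 bases, while its median transcript length is 1857.5 bases.

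The other processing enzymes varied widely in level. CPE, the carboxypeptidase that removes basic residues after cleavage, was highest of 15 processing enzymes per kilobase, at 79.8 ± 2.59, and had 186, 195 and 199 CPM, a mean of 193 ± 6.27 CPM (SD, n = 3). PAM, the amidating enzyme, had 149, 149 and 172 CPM, and CPD, a carboxypeptidase of the trans-Golgi network, had 129, 134 and 153 CPM. FURIN and PCSK7, convertases of the constitutive pathway, were at 68.1 ± 5.09 and 65.7 ± 8.16 CPM. QPCT, which forms N-terminal pyroglutamate, had 1, 6 and 1 counts. Of the list, 9 of 15 genes were detected, against 22.9% of all genes, and CPZ had 0 counts throughout.

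**Figure D3:**
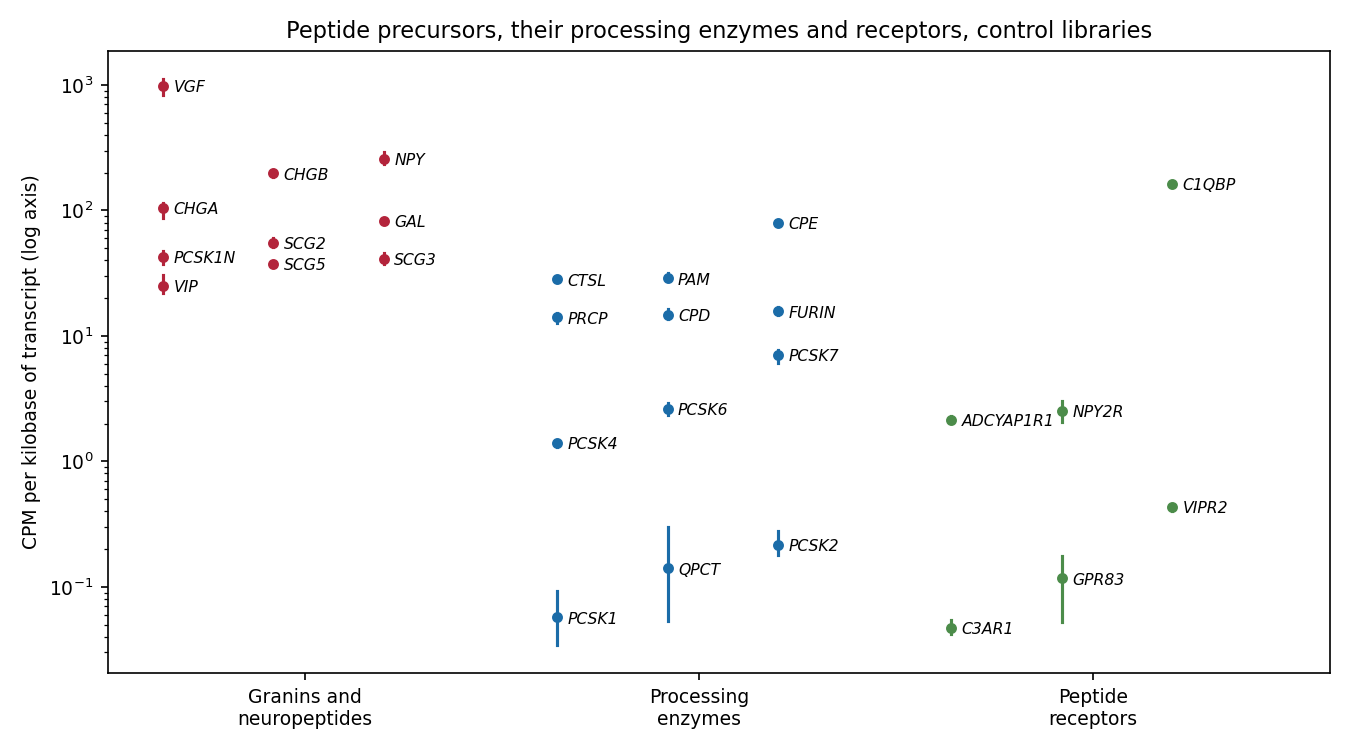
Mean CPM per kilobase of transcript on a log axis (points) with the range of 3 control libraries (bars), for the 10 members, the processing enzymes and the peptide receptors with at least 1 count in every library. The members lie between 25.2 and 988, CPE at 79.8, and PCSK2 and PCSK1 at 0.215 and 0.0569.

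Of 35 genes for dense-core vesicle formation and release, 31 were detected, which is 88.6% against 22.9% of all genes in the table. The median of all 35 genes was 8.13 ± 0.791 CPM per kilobase (SD, n = 3), and that of all detected genes was 8.34. These are unlike sets. The list's median includes BAIAP3, RAB27B, SLC18A2 and CADPS2, which were not detected and pull it down. CYB561, the electron carrier of the vesicle membrane, had 589, 533 and 540 CPM. SYT11 and SYT4, synaptotagmins that bind calcium weakly or not at all, were at 549 ± 9.98 and 249.7 ± 22.04 CPM. PTPRN, a transmembrane protein of secretory granules, was measured at 151, 153 and 138 CPM. CADPS, the priming factor of dense-core vesicles, had 67, 69 and 36 counts, and its paralog CADPS2 had 2, 1 and 1. SLC18A1, a vesicular monoamine transporter, was at 71.6 ± 10.98 CPM, and SLC18A2 at 0.840 ± 0.170 CPM, from 7 to 11 counts. PTPRN, CADPS, CADPS2, SLC18A1, SLC18A2, FURIN, PCSK7 and QPCT were picked for mention after their values were seen.

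Of 14 listed receptors for the encoded peptides, 4 were detected, which is 28.6% against 22.9% of all genes, and 42.9% were at 0 in every library against 53.6% of all genes. Of the NPY receptors, NPY2R, an inhibitory receptor found on sympathetic nerve endings, had 97, 86 and 97 counts, or 9.18 ± 1.72 CPM (SD, n = 3). NPY1R, NPY4R and NPY5R had 0 counts in all libraries, which allows up to 0.338 CPM in replicate 3, the shallowest. This bound covers counted reads only, since the treatment of reads matching several genes is not given. GALR1 and GALR3 were also at 0, and GALR2 had 0, 4 and 1 counts. VIPR2 had 19, 20 and 14 counts, and VIPR1 had 2, 0 and 2. ADCYAP1R1, the receptor for the VIP-related peptide PACAP, was at 14.1 ± 1.01 CPM, while ADCYAP1, which encodes PACAP, had 0 counts throughout. The detected genes were NPY2R, ADCYAP1R1, VIPR2 and C1QBP. C1QBP, a mitochondrial protein also proposed as a binding partner of a VGF peptide, was at 191 ± 4.73 CPM, or 163 CPM per kilobase against 2.53 for NPY2R, the next of the list.

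Other peptide precursors were detected at about the share of all genes in the table, which includes non-coding genes. Of 60 listed genes, 13 were detected, which is 21.7% against 22.9% of all genes in the table, and 26 had 0 counts in every library, PENK and SST among them, which is 43.3% against 53.6%. Together the 60 genes took 136, 139 and 138 CPM. Most of it came from NUCB2, the nesfatin precursor, with 44.8, 48.9 and 53.3 CPM, NMU, the neuromedin U precursor, with 18.05, 19.8 and 17.3 CPM, and NMB, the neuromedin B precursor, with 17.6, 15.6 and 16.5 CPM. NUCB2 also encodes a calcium-binding protein of the Golgi. Per kilobase, VIP, the lowest member at 25.2 ± 4.75, was near NMU, the highest of the listed precursors at 22.5 ± 1.57, and NUCB2 was at 15.0 ± 1.30.

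**Figure D4:**
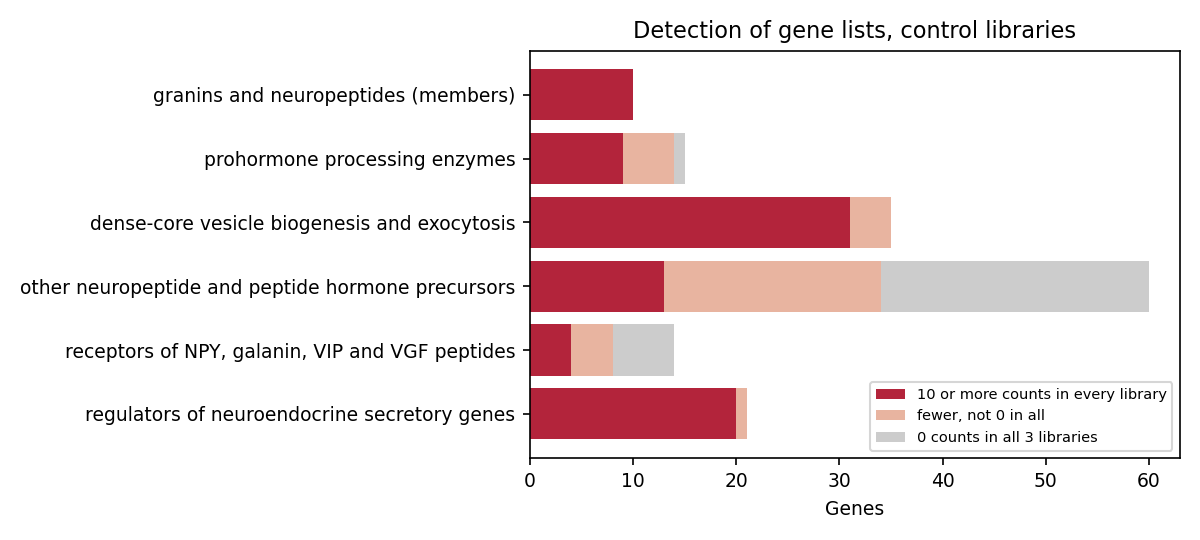
Number of genes (horizontal axis) in the 10-member set and in each of 5 lists that were detected (red, 10 or more counts in each control library), with fewer counts (pink) and with 0 counts in all 3 libraries (grey). All 10 members are red, as are 31 of 35 vesicle genes, while 26 of 60 other precursors and 6 of 14 receptors are grey.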

How the data were processed

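Gene values were deposited as raw read counts, keyed by Ensembl identifier and not normalized per the file headers and values. The submitters' processing notes name fastp 0.21.1, STAR 2.7.7a, featureCounts and the build GRCh38. The annotation release, strand setting and treatment of reads matching several genes are not given in the sources used here. Columns were matched to samples by label number, and 3 count columns matched no sample and were not used. One gene without values and 2 lines naming no gene were dropped, leaving 60709 genes, of which 60436 had a symbol.

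CPM used TMM factors from edgeR 4.0.16 (R 4.3.3). Length, GC content and positions came from GENCODE release 29 (GRCh38), which may differ from the authors' annotation. Per library, the GC trend was the median, in 50 GC bins, of log2(CPM + 1) minus its mean over libraries, for 10290 nuclear genes (mean of at least 100 counts, at least 10 in every library). Removal of the trend was tried on simulated counts, with a straight GC slope in replicate 3 only and no spread beyond counting error. That setting is simpler than these data, so it does not show how well the removal works here. A count of 0 allows up to 3 counts. The comparison of treated with control samples could not be run, and 3 libraries of 1 group were described without tests. Python 3.11.15, numpy 2.4.6, pandas 2.3.3, scipy 1.17.1 and matplotlib 3.10.9 were used.

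The members, lists and alternatives were chosen with earlier results of these data known. All members were named whatever their values, with the 3 highest genes of each list, up to 2 genes at 0 per list and a set of processing enzymes, receptors and regulators. Some values that this rule covers are not reported here. No genes of like pattern were sought, since 3 libraries allow no correlation across samples.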

Additional observations from a re-analysis of the deposited data

How the results depend on the processing

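The summed level of the 10 members, 3925 CPM, went from 3749 to 4130 CPM when each library was left out, and from 3907 to 4120 CPM under RLE size factors, library size alone, mitochondrial genes left out and the GC trend removed. Their median CV, 10.6%, ranged from 4.06% without replicate 3 to 12.6% without replicate 2, and was 5.37% with the GC trend removed. The 2 members lower in replicate 3 by at least 0.32 (log2) became 0 at a fold of 1.5 (1.82% of detected genes) and 0 with the GC trend removed (5.21%). The 1 member higher became 0 at a fold of 1.5 (1.90%). With the trend removed the count of higher members was again 1, but the gene was NPY in place of VIP. RLE size factors, library size alone and both other count minimums gave 2 and 1. At a minimum of 1 count, 17.5% of genes were lower and 15.6% higher by that much. At a mean of at least 100 counts these shares were 5.25% and 6.56%. For detected genes they were 8.25% and 10.5% under RLE size factors, and 9.43% and 8.99% with library size alone. VGF exceeded the next member by 3.88 ± 0.894 times per kilobase, by 5.02 times without length and by 4.83 times over merged exons, a length added after the data were seen. The median transcript length gave 3.35 times.

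The number of other precursors detected, 13, was 20 at a minimum of 1 count. The other 4 lists stayed within 1.5 times. Of 40 mean levels of single members under alternatives that kept all libraries, 2 moved by more than 1 SD, GAL to 70.5 and SCG5 to 48.5 CPM, both with mitochondrial genes left out. Of 70 CVs of single members, 18 moved by over 1.5 times, 8 of them with the GC trend removed and 7 without replicate 3.

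No paired analysis was possible because the peptide samples had no matched column. DESeq2, other filters and the replicate block, planned for the comparison of treated with control samples, were not run. Depth limits the values of PCSK1, PCSK2, QPCT, CADPS2, SLC18A2, VIPR1, GALR2, INSM1 and C3AR1, which rest on 15 or fewer counts per library.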

Other observations

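Regulators of neuroendocrine secretory genes were nearly all present. Of 21 listed genes, 20 were detected (10 or more counts in each library), which is 95.2% against 22.9% of all genes in the table. The median of all 21, with INSM1, which was not detected, included, was 8.93 ± 0.764 CPM per kilobase (SD, n = 3). For detected genes alone the median was 8.34. ISL1, a factor of sympathetic and other neurons, was at 179.9 ± 11.7 CPM, and the general factor SP1 was at 132 ± 4.66 CPM. REST, which represses neuronal and secretory genes in other cell types, was measured at 56.7, 55.6 and 61.0 CPM. SRRM4, a splicing factor that acts on the REST transcript in neurons, was at 20.9 ± 2.68 CPM. CREB1 had 62.7, 79.6 and 79.6 CPM, lowest in replicate 1, and with the GC trend removed 69.3, 79.9 and 71.2 CPM. INSM1, a neuroendocrine factor, was the exception with 3, 4 and 1 counts. SRRM4, CREB1, INSM1 and C3AR1 were picked for mention after their values were seen.

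VGF had 30729, 29875 and 18984 counts while C3AR1, which encodes a proposed receptor of a VGF peptide, had 1 in each library.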
